A study of Bos taurus with 6 samples.

Results

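The miR-26 family of cattle was followed in granulosa cells, the somatic cells that line the follicle. It was taken as every mature miRNA name with the number 26, whatever its letter. This gave 3 of the 755 mature names, bta-miR-26a, bta-miR-26b and bta-miR-26c, and 4 of the 906 rows of a library, since each row pairs a mature name with a precursor. The small RNA of 6 libraries was sequenced, 3 from preovulatory dominant follicles and 3 from anovulatory subordinate follicles. All follicles came from Simmental heifers slaughtered on day 19 of the estrous cycle, after synchronization with the prostaglandin analogue cloprostenol and the gonadotropin releasing hormone analogue buserelin. Follicles were sorted by their outer diameter, and RNA was pooled before the libraries were made. Far fewer dominant than subordinate follicles were at hand, so a dominant library can rest on very few follicles. The p-values given here measure the spread between such pools, and both groups came from the same animals.

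A miRNA guides silencing proteins to messenger RNAs mainly through its seed, the bases near its 5′ end. bta-miR-26a and bta-miR-26b carry the same seed and are therefore expected to share targets, among which EZH2, a histone methyltransferase, is well known. Their precursors lie inside genes for small phosphatases of the RNA polymerase II tail. In pig granulosa cells, miR-26b has been studied as a promoter of apoptosis, the process by which subordinate follicles are lost. In the RefSeq gene table for the ARS-UCD2.0 assembly, bta-mir-26a-1 lay within CTDSPL, bta-mir-26a-2 within CTDSP2 and bta-mir-26b within CTDSP1. The table gave bta-mir-26c the same start and end as bta-mir-26a-1. It does not separate exons from introns, and the reads were mapped to another build, UMD3.1.

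With 1 value per mature name, the largest of its rows, the libraries held between 190385 and 364125 reads. The paper checked purity by PCR, and in all samples FSHR, a granulosa cell gene, was strong and CYP17A1, a theca cell gene, negligible. miRNA markers of other cell types were present in both groups. Levels are given as CPM, reads scaled to a common library size with edgeR's TMM factors. Their sums were between 1305 and 14205 in dominant and between 1366 and 2029 in subordinate follicles for 7 names of blood cells. The 2 arms of bta-miR-126, of endothelium, summed to between 73.2 and 293 CPM in dominant and to between 354 and 540 CPM in subordinate follicles. For 6 names of stroma and theca the sums were between 17638 and 27860 CPM in dominant and between 21104 and 35793 CPM in subordinate follicles. Most of this was bta-miR-143, with 25302, 15222 and 16554 CPM in dominant and 18996, 32960 and 30236 CPM in subordinate replicates 1, 2 and 3. The paper lists bta-miR-143 among the most abundant names of subordinate granulosa cells. None of these marker names was without reads in the whole series. bta-miR-202, a miRNA of gonadal somatic cells, had between 43506 and 46747 CPM in dominant and between 11575 and 15230 CPM in subordinate follicles. By the thresholds given with the tests below, bta-miR-202 and the blood names bta-miR-451 and bta-miR-486 were called higher in dominant follicles (log2 fold changes of 3.00 and 2.45 for the blood names), and bta-miR-214 of stroma was called lower (-1.20). The other blood names tested ran from -0.48 (bta-miR-223) to 1.33 (bta-miR-144), and none was called. Dominant replicate 3 lay within the subordinate range for both called blood names. It had 121 CPM of bta-miR-451 (98.8 to 224 in subordinate follicles) and 927 CPM of bta-miR-486 (709 to 1336).

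bta-miR-26a was the most abundant miRNA name in each of the 6 libraries. It had 43660, 35768 and 67595 reads in dominant replicates 1, 2 and 3. In subordinate replicates 1, 2 and 3 it had 72123, 96703 and 64365 reads. A read spans the mature miRNA, so these counts need no correction for length, although ligation favors some ends over others. As a share of the library this was 16.8, 18.8 and 21.7% in dominant follicles. The shares of bta-miR-26a in subordinate follicles were 21.8, 26.6 and 21.0%. Dominant replicate 3 lay above subordinate replicate 3, and the groups overlapped. The 95% Wilson interval of dominant replicate 1 ran from 16.7 to 16.9%, so counting error was far smaller than the spread between libraries. Such intervals cover counting error only.

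bta-miR-10b, a miRNA encoded in a HOX cluster, was second in every library. There were 1.48, 1.89 and 1.88 reads of bta-miR-26a for each of its reads in dominant replicates 1, 2 and 3. In subordinate follicles the ratio was 1.30, 1.30 and 1.13. The lead of bta-miR-26a over the next name was thus wider in every dominant library (mean 1.75 ± 0.235 against 1.24 ± 0.0991, SD, n = 3; exact permutation test, two-sided, p = 0.1). That is the smallest p which 3 libraries against 3 allow. bta-miR-10b itself stood at -0.98 on the log2 fold change scale (adjusted p = 0.00425, quasi-likelihood test of edgeR), further below 0 than the value of bta-miR-26a given below, so the wider lead does not stand for more bta-miR-26a.

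bta-miR-26b had 1511, 1333 and 1773 reads in dominant replicates 1, 2 and 3. The subordinate libraries held 1569, 1581 and 1263 reads. Its share of the library was 0.581, 0.700 and 0.569% in dominant and 0.475, 0.434 and 0.411% in subordinate follicles, and every dominant library lay above every subordinate one (exact permutation test, two-sided, p = 0.1). By read count it ranked between 28 and 33 in the libraries. Ordered by its mean level over the 6 libraries it was name 29, between bta-miR-25, of the miR-92 seed group, and bta-let-7b. That order held in subordinate but not in dominant follicles. In dominant follicles bta-let-7b had 6151 ± 268, bta-miR-26b 5720 ± 430 and bta-miR-25 3985 ± 485 CPM (SD, n = 3 each), and the first pair differed by about the spread of bta-miR-26b. In subordinate follicles there were 6749 ± 1017 CPM of bta-miR-25, 4734 ± 340 of bta-miR-26b and 4206 ± 317 of bta-let-7b (SD, n = 3 each).

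bta-miR-26c had 0 reads in all 6 libraries. A count of 0 allows up to 3 reads, which is between 0.000824 and 0.00158% of a library, or between 8.86 and 13.9 CPM. It was therefore not tested for a difference. Its precursor has the coordinates of bta-mir-26a-1 in the gene table, which gives no strand.

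**Figure D1:**
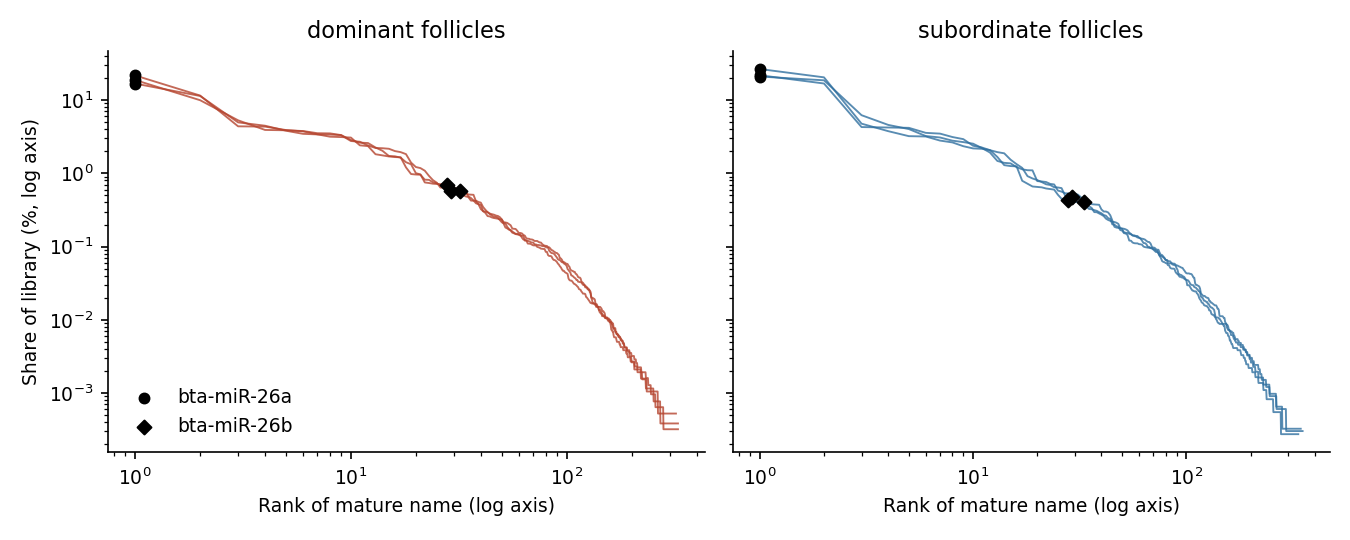
Share of the library (%, log axis) of each mature name with a read against its rank (log axis), with 1 line per library, dominant follicles left and subordinate follicles right. bta-miR-26a (circles) is at rank 1 in all 6 libraries and bta-miR-26b (diamonds) between ranks 28 and 33.

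bta-miR-26a is the only member with more than 1 row. Its bta-mir-26a-1 row held 43653, 35762 and 67583 reads in dominant and 72095, 96649 and 64342 reads in subordinate replicates 1, 2 and 3. The bta-mir-26a-2 row was the larger one in every library, by 7, 6 and 12 reads in dominant and by 28, 54 and 23 reads in subordinate follicles. Nearly all reads were thus counted on both precursors, and the files cannot divide bta-miR-26a between them. The excess of the second row was 0.0160, 0.0168 and 0.0178% of that row in dominant follicles. The excess was 0.0388, 0.0558 and 0.0357% in subordinate follicles, so the groups did not overlap (exact permutation test, two-sided, p = 0.1). The excess rests on between 6 and 54 reads per library, and row gaps of other names were not compared between the groups. Of 35 names with several rows and a mean of at least 10 reads, 27 had rows with different counts, and bta-miR-26a had the smallest mean gap among those 27, 0.0302% of the larger row.

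**Figure D2:**
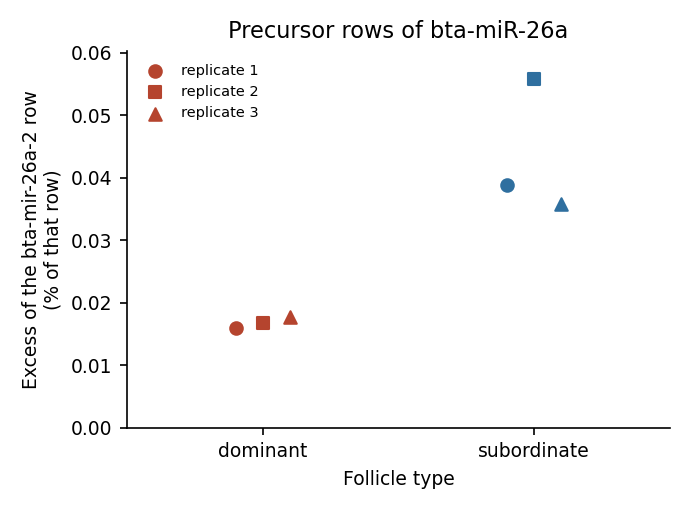
Excess of the bta-mir-26a-2 row over the bta-mir-26a-1 row, in % of the former, for each library (symbols are replicates). The 3 dominant libraries lie between 0.0160 and 0.0178% and the 3 subordinate libraries between 0.0357 and 0.0558%.

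The design asks whether the family differs between follicles that are about to ovulate and those that are not. After TMM scaling, bta-miR-26a had 154046, 165893 and 215223 CPM in dominant replicates 1, 2 and 3. The subordinate libraries had 212967, 312761 and 227116 CPM of it. Dominant replicate 3 exceeded subordinate replicate 1, and subordinate replicate 2 stood far above the other libraries. The log2 fold change, dominant over subordinate, was -0.49 (standard error 0.19, 95% interval -0.92 to -0.065, adjusted p = 0.0956, quasi-likelihood test of edgeR). Names were called when they changed by 1 or more on the log2 scale in either direction, with a false discovery rate no higher than 0.1 and an unadjusted p-value no higher than 0.05. bta-miR-26a did not reach the fold change.

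The levels of bta-miR-26b were 5331, 6182 and 5645 CPM in dominant replicates 1, 2 and 3. In subordinate follicles they were 4633, 5113 and 4457 CPM. Each dominant library lay above each subordinate one. The log2 fold change was 0.27 (standard error 0.16, 95% interval -0.082 to 0.63, adjusted p = 0.248, quasi-likelihood test of edgeR), which did not pass. The interval holds 0 and reaches up to 0.63, so with 3 libraries against 3 neither no change nor a rise of that size was excluded.

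None of the 2 tested members was called, where 76 of all 353 names tested (21.5%) were. With the false discovery rate alone as the rule, 30.3% of all names passed, and bta-miR-26a was among them. Levels that did not overlap between the groups, as for bta-miR-26b, were found in 36.8% of all names. The median log2 fold change of the 353 names was -0.20 with TMM factors and -0.01 when libraries were scaled by total count alone. Relative to that median bta-miR-26a stood at -0.29 with TMM and at -0.26 with total count. The corresponding values of bta-miR-26b were 0.47 and 0.50. Among all names tested, 127 had a lower log2 fold change than bta-miR-26a and 129 had a higher one than bta-miR-26b.

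**Figure D3:**
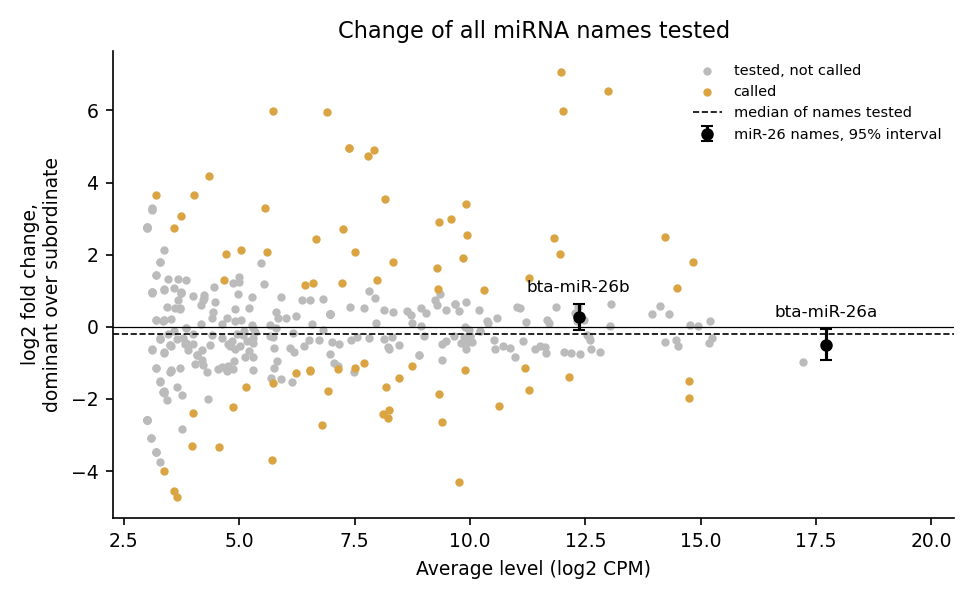
log2 fold change, dominant over subordinate, of the 353 names tested against their average level (log2 CPM), with called names in color and the miR-26 names in black with 95% intervals. bta-miR-26a lies at -0.49 and bta-miR-26b at 0.27, on either side of the median of all names (dashed line, -0.20).

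The value of bta-miR-26a depended on single libraries and on the scaling. It was -0.30 without subordinate replicate 2 (adjusted p = 0.238), -0.40 without dominant replicate 1 (adjusted p = 0.288) and -0.28 with total count in place of TMM (adjusted p = 0.192), all from the quasi-likelihood test of edgeR. Without dominant replicate 2 it was -0.42. Leaving out others moved it further from 0, to -0.66 without dominant replicate 3, -0.60 without subordinate replicate 1 and -0.56 without subordinate replicate 3. The 7 blood cell markers summed to 14205, 8900 and 1305 CPM in dominant replicates 1, 2 and 3, and were highest where bta-miR-26a was lowest among these 3. Among them bta-miR-451 of red blood cells had 642, 372 and 38 reads there. In subordinate replicates 1, 2 and 3 the markers summed to 2029, 1937 and 1366 CPM, beside 212967, 312761 and 227116 CPM of bta-miR-26a. There the highest sum again went with the lowest bta-miR-26a, but the lowest sum did not go with the highest. The part of the blood markers in the result was not tested.

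**Figure D4:**
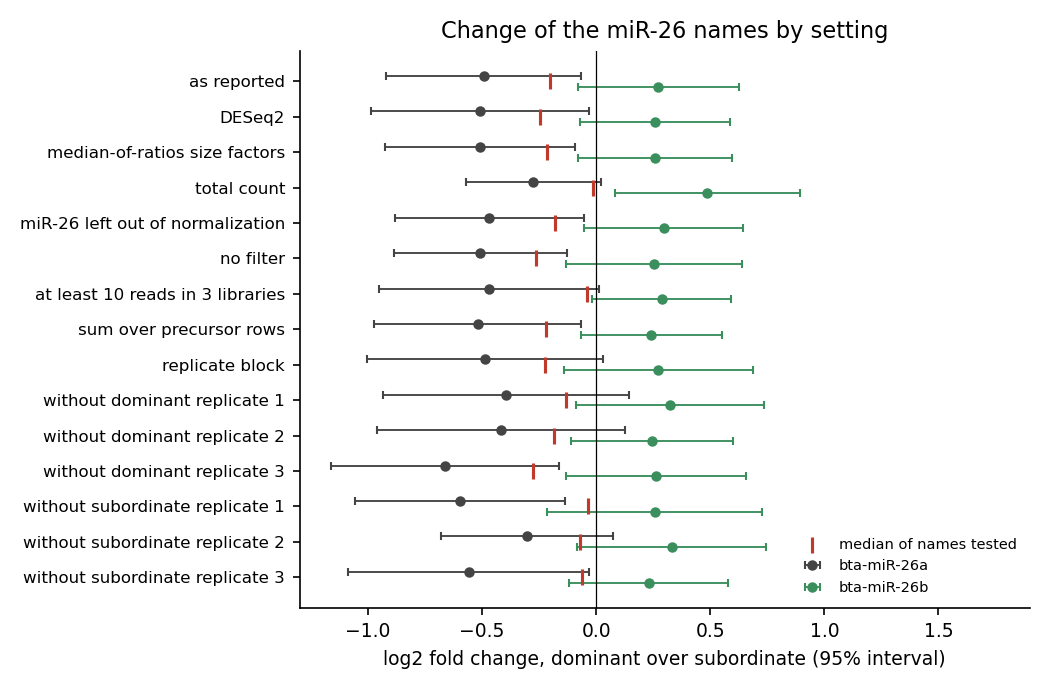
log2 fold change, dominant over subordinate, of bta-miR-26a and bta-miR-26b with 95% intervals under each setting, and the median of all names tested (red ticks). Over the 15 settings bta-miR-26a runs from -0.66 to -0.28 and bta-miR-26b from 0.23 to 0.49.

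The ratio of the paralogs needs no scaling between libraries. For each read of bta-miR-26b there were 28.9, 26.8 and 38.1 reads of bta-miR-26a in dominant replicates 1, 2 and 3. In subordinate follicles there were 46.0, 61.2 and 51.0. The highest dominant library lay below the lowest subordinate library. Such separation was not particular to this pair, since the ratio of bta-miR-26a to bta-miR-10b, given above, did not overlap either, in the other direction. How many other names separated the groups in their ratio to bta-miR-26a was not counted. On the log2 scale the ratio was 4.95 ± 0.27 in dominant and 5.71 ± 0.21 in subordinate follicles (SD, n = 3 each), a difference of -0.76 (exact permutation test, two-sided, p = 0.1, the smallest possible). bta-miR-26b thus made up 3.16 ± 0.542% of the family's reads in dominant and 1.89 ± 0.262% in subordinate follicles (SD, n = 3 each).

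The same ratio was also tested in a fit across all names with the reads of bta-miR-26a in place of the library size, an alternative added after the data had been seen. Relative to bta-miR-26a, bta-miR-26b had a log2 fold change of 0.76 (standard error 0.28, 95% interval 0.16 to 1.37, adjusted p = 0.0730, quasi-likelihood test of edgeR). In that fit 24.7% of the 352 names passed a false discovery rate of 0.1, the median of all names was 0.29, and 128 names had a higher log2 fold change than bta-miR-26b.

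**Figure D5:**
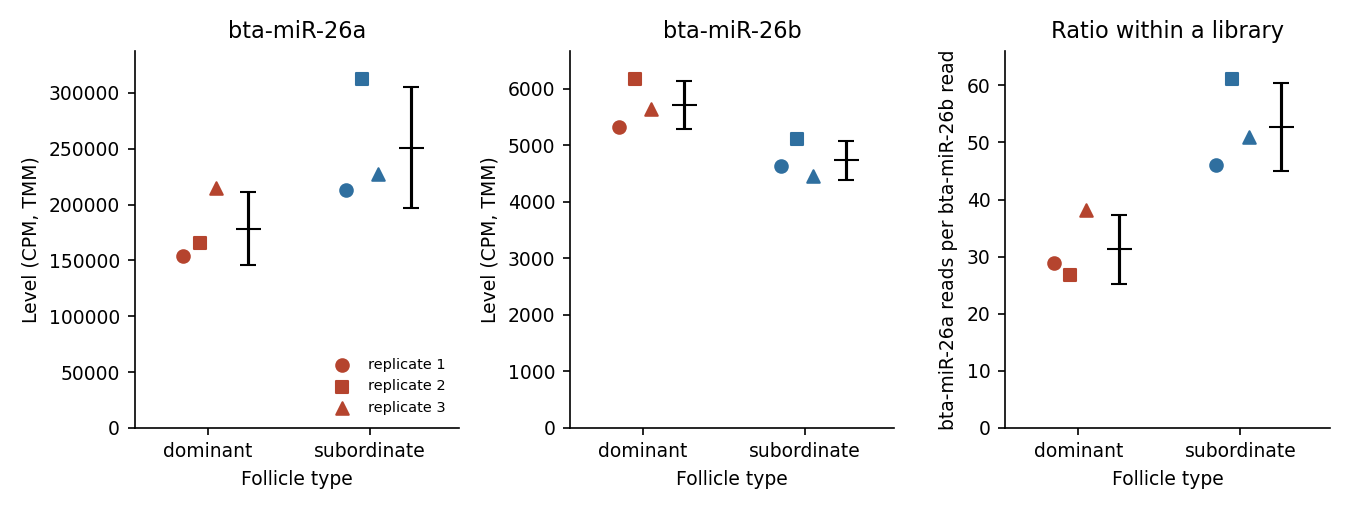
Level of bta-miR-26a and of bta-miR-26b (CPM with TMM factors) and reads of bta-miR-26a per read of bta-miR-26b in each library. Symbols are replicates and bars are mean ± SD (n = 3). bta-miR-26a overlaps between follicle types, while bta-miR-26b is higher and the ratio lower in each dominant library.

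Because bta-miR-26a dominates the family, the family as a whole followed it. The 3 names together took 17.4, 19.5 and 22.2% of the reads in dominant replicates 1, 2 and 3. In subordinate follicles the family took 22.3, 27.0 and 21.4%. The difference of the means was -3.86 percentage points (19.7 ± 2.44 against 23.6 ± 3.01%, SD, n = 3 each; exact permutation test, two-sided, p = 0.2), and the groups overlapped. Without subordinate replicate 2 the difference was -2.14 percentage points.

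Other abundant families were set beside these values. The let-7 family with miR-98, regulators of cell differentiation, had 10 tested names, none of them called, where 21.5% of all names were. The median log2 fold change was 0.07, from -0.36 (bta-let-7d, adjusted p = 0.241) to 0.63 (bta-miR-98, adjusted p = 0.0484, quasi-likelihood test of edgeR for both). Of 6 names of the miR-30 family, too, none was called. Their median was 0.45, from -0.72 (bta-miR-30c, adjusted p = 0.0417) to 0.90 (bta-miR-30f, adjusted p = 0.0235, the same test). bta-miR-98, bta-miR-30c and bta-miR-30f thus missed only the fold change threshold. bta-miR-30a-5p, the most abundant name of the miR-30 family, had 20341, 19897 and 23361 CPM in dominant and 13016, 14671 and 14816 CPM in subordinate replicates 1, 2 and 3. The groups did not overlap, and its log2 fold change was 0.58 (adjusted p = 0.0221, quasi-likelihood test of edgeR), short of the fold change threshold. In the group of miR-10, miR-99, miR-100 and miR-125, 3 of 8 names were called lower and none higher, where 9.63% of all names were called lower. The median was -0.85, from -2.20 (bta-miR-100) to 0.05 (bta-miR-99a-3p). These calls rested on subordinate replicate 3, and without it 0 of the 8 names were called. bta-miR-100 then stood at -0.84, bta-miR-99a-5p at -0.65 and bta-miR-99b at -0.92, against -1.39 and -1.50 for the last pair with it. Their adjusted p-values without it were 0.0141, 0.0436 and 0.0525 (quasi-likelihood test of edgeR), so the fold change threshold was what they missed. The median of the 8 names was then -0.62, against -0.06 for all names tested in that fit. With all 6 libraries the median of all names tested, given above, was -0.20. As a share of the library, that group took 15.5 ± 0.900% in dominant and 26.3 ± 3.52% in subordinate follicles (SD, n = 3 each). The shares of bta-miR-26a by itself were 19.1 ± 2.45% and 23.1 ± 3.01% (SD, n = 3 each).

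The names whose log2 CPM followed the members most closely over the 6 libraries were sought among 192 other names with a mean of at least 10 reads. For bta-miR-26a they were bta-miR-532 (Pearson r = 0.97), bta-miR-140 (0.96), bta-miR-660 (0.92), bta-miR-146b (0.91) and bta-miR-148a (0.91). bta-miR-532 and bta-miR-660 come from the same intronic cluster. For bta-miR-26b they were bta-miR-30b-5p (0.96), bta-miR-195 (0.94), bta-let-7b (0.93) and bta-miR-2284x and bta-miR-2284y (0.92 each, listed with the same counts). bta-miR-26a and bta-miR-26b themselves had r = -0.43. These values describe 6 libraries of 2 follicle types that share scaling and were picked as the highest of 192.

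None of the 10 names found in this way was called, where 21.5% of all names were. With the false discovery rate alone as the rule 8 of the 10 passed, against 30.3% of all names, and since they were picked for following a member this count is only a description. Those nearest to bta-miR-26a had log2 fold changes between -0.61 and -0.27, and those nearest to bta-miR-26b between 0.55 and 0.63.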

How the data were processed

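Granulosa cell RNA of 3 dominant and 3 subordinate pools was sequenced as small RNA. The deposited values are counts without normalization. To obtain them, the authors cut adapters and discarded short or poor reads (Cutadapt, Seqtk), mapped with Bowtie to the bovine genome (UMD3.1 in the submitters' processing notes, with base calls by CASAVA 1.8.0) and counted with miRDeep2 on miRBase names, so a read that fits several precursors is counted in each row. The reads in repeated rows made up between 24.8 and 30.0% of a library. Follicle types and replicate numbers came from the labels.

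For each mature name the largest row was used. The 353 names that had 1 read or more in 2 or more replicates of either group were tested with edgeR 4.0.16 in R 4.3.3, using TMM factors and a quasi-likelihood fit on follicle type, without covariates. P-values were adjusted by Benjamini-Hochberg over all 353. The standard error is the absolute log2 fold change over the square root of F. Shares and ratios used exact permutation tests in scipy 1.17.1. A library's 3 reads equal between 8.86 and 13.9 CPM. The fit was tested on simulated data. The members and comparison lists were chosen with earlier results of these data known. Named besides the members were the 5 closest names to each of 2 members, neighbors in level and, from each list, its most abundant name or its range. Mature sequences were not used here, so names that share the seed were not sought. Alternatives were DESeq2 1.42.0, other scalings and filters, summed rows, the replicate number as a block and each replicate left out.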

Additional observations from a re-analysis of the deposited data

How the results depend on the processing

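bta-miR-26a stayed below 0, and bta-miR-26b above 0, under all 15 settings of the test, and neither was called under any of them. The false discovery rate of bta-miR-26a was at most 0.1 in 6 of the 15 settings (from 0.0640 to 0.288), and that of bta-miR-26b in 1, with total count (from 0.0911 to 0.431). With DESeq2 the log2 fold changes were -0.51 and 0.26. The number of names called ran from 54 without dominant replicate 1 to 78 without dominant replicate 3, against 76, and was 107 with no fold change threshold. The difference in the family's share ran from -5.13 to -2.14 percentage points when 1 replicate was left out, and was -2.24 when repeated rows were counted in the denominator. The difference in the log2 ratio of the paralogs ran from -0.91 to -0.65 when 1 replicate was left out. The deviations of libraries with the same replicate number had correlations of 0.0072, 0.11 and 0.27, not all above 0.1, so the numbers were not taken to pair the libraries. Such values cannot exclude pairing, as both groups came from the same animals. With the replicate block bta-miR-26a had -0.49 (adjusted p = 0.178, edgeR's quasi-likelihood test), bta-miR-26b had 0.27 and 71 names were called. Replicate 3 of both groups correlated best with each other, and dominant replicate 1 with subordinate replicate 2 (0.18).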
